A study of Mus musculus with 5480 samples.

Results

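Matrix metalloproteinases (MMPs) are zinc-dependent enzymes that cut collagens and other proteins of the extracellular matrix, and tissue inhibitors of metalloproteinases (TIMPs) are secreted proteins that bind them and block their active site. The 8 genes described here are 4 MMPs (Mmp2, Mmp3, Mmp11 and Mmp14) and the 4 mouse TIMPs (Timp1, Timp2, Timp3 and Timp4). They were taken by name from the 18072 genes of a table of read counts, and all 8 were present. Their levels were followed across every mesenchymal subtype, age and oxygen condition of the study.

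The enzymes differ in where they act. Mmp2 (gelatinase A) is secreted as an inactive proenzyme and cuts denatured collagen and basement-membrane collagen. Mmp14 (MT1-MMP) is anchored in the cell membrane, cuts fibrillar collagen and activates pro-Mmp2 in a complex in which Timp2 serves as the bridge. Mmp3 (stromelysin 1) cuts proteoglycans, laminin and fibronectin and can activate other proenzymes, and Mmp11 (stromelysin 3) is cut to its active form inside the cell by furin. Among the inhibitors, Timp3 stays bound to the matrix and also inhibits sheddases of the ADAM family, whereas the others are soluble. In the growing lung the mesenchyme lays down and remodels the matrix of the alveolar walls, the airways and the vessels, which is where this enzyme and inhibitor system is at work.

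The samples were 5480 single cells of distal mouse lung, sorted by flow cytometry and sequenced in plates after fragmentation with Tn5 transposase. They came from 10 mice, 1 female and 1 male in each of 5 groups: in normal air the fetal stage E18.5 (embryonic day 18.5) and the postnatal ages P1, P7 and P21 (days after birth), and in hyperoxia, which is oxygen-enriched air, P7. All mice carried the same labels otherwise: strain, genotype, oxygen concentration and the start of the exposure are not given in the sources used here. Because each group has 1 mouse of each sex, the spread given is that between a female and a male. A mouse gave 311 to 633 cells and 294154721 to 671766116 reads, and a cell had a median of 774305 reads (39358 to 5177020). The authors named 16 subtypes from the expression of these cells, so levels in different subtypes are described and not tested. For tests, reads were summed per mouse over 6 classes: alveolar fibroblasts, adventitial fibroblasts (the fibroblasts around vessels and airways) and airway smooth muscle, each with its early and later subtype joined, and myofibroblasts, vascular smooth muscle and pericytes, the cells that wrap capillaries. Airway smooth muscle, vascular smooth muscle and myofibroblasts at E18.5, myofibroblasts at P21 and pericytes in hyperoxia had under 10 cells of a mouse and entered no comparison.

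Marker genes were present under the authors' names, with limits. In adventitial fibroblasts at P21 the summed level of 6 adventitial markers (Pi16, Dcn, Col14a1, Serpinf1, Dpp4, Clec3b) was 15347 to 19182 CPM (reads per 1000000 reads of the summed cells), against 1503 to 8068 CPM in the early adventitial cells. The 6 alveolar markers summed to 21105 to 25146 CPM in alveolar fibroblasts at P21 but to 1421 to 3476 CPM in early alveolar fibroblasts, a range that fibroblast precursors shared (2918 to 3134 CPM). Pericytes had 8737 to 15636 CPM of their markers, above the 2019 to 4409 CPM of vascular smooth muscle. The muscle lists did not separate the muscle types: airway smooth muscle markers reached 12143 to 26688 CPM in vascular and 15353 to 21896 CPM in early airway smooth muscle. The names of muscle subtypes therefore rest on the authors' annotation. Apart from a small run with 14 cells of the male in normal air at P7 and 9 cells of the hyperoxic male, no sequencing run held cells of both conditions at P7, so run and hyperoxia cannot be told apart. One run held the 4 males from normal air and another the females of E18.5 and P1, so for females only the step from E18.5 to P1, and for males every age step, stayed inside 1 run.

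The 250 bases before the RefSeq start of 3 members are shown because Mmp3 and Timp3 changed with age and Timp1 differed under hyperoxia without overlap between mice. Sequences were taken from RefSeq on GRCm38.p6, where 7 of the 8 members had one (Mmp2 did not). Each reads 5′ to 3′ on the plus strand, the strand of all 3 genes, and ends at the base before the start. Mmp3 lies at chr9:7445572-7445821, Timp1 at chrX:20869916-20870165 and Timp3 at chr10:86300162-86300411. Capitals mark matches, in the printed strand, to the AP-1 motif TGANTCA, the Ets motif AGGAAG and the TATA motif TATAAA.
Mmp3: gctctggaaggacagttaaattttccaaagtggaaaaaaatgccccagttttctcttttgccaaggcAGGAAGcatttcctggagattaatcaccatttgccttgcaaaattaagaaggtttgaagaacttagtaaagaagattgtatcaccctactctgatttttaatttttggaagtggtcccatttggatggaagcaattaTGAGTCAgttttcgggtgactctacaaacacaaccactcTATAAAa
Timp1: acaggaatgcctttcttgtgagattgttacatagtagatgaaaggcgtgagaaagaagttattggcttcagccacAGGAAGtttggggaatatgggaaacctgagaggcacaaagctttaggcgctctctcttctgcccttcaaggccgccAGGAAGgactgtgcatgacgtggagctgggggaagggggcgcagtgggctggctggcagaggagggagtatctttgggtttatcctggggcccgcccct
Timp3: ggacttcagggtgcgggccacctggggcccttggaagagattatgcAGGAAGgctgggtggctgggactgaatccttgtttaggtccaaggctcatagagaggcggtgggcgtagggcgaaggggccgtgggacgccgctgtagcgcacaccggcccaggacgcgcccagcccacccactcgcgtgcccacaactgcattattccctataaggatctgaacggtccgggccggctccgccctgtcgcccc

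Motifs were searched in both strands of the 250 bases upstream of 27025 genes. The AP-1 motif was in 6.87% of them and in 1 of 7 members, Mmp3, as TGAGTCA at 46 to 40 bases before the start. The TATA motif was in 13.0% of all and, among the members, in Mmp3 alone (7 to 2 bases before the start). The Ets motif was in 29.2% of all and in 5 of 7 members (Mmp3, Mmp14, Timp1, Timp3 and Timp4). The Sp1 motif GGGCGG was in 32.9% of all and in 5 of 7 members, those without it being Mmp3 and Timp4. The CArG motif, known from smooth muscle genes, was in 1.40% of all and in 0 of the 7. The sequences also differ in composition: G and C made up 37.6% of the Mmp3 bases, 54.4% of those of Timp1 and 65.6% of those of Timp3, against a median of 52% over all genes. A match is a run of letters and not a measured binding site.

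Mmp2 was found in every class and was highest in fibroblasts and in E18.5 precursors. In adventitial fibroblasts E18.5 had 923 and 1196 CPM in the female and the male, P1 had 1347 and 1512 CPM, P7 had 1885 and 1963 CPM and P21 had 2950 and 3383 CPM, so that every later pair lay above the earlier one. In alveolar fibroblasts E18.5 had 609 and 848 CPM, P1 had 2051 and 1981, P7 had 1933 and 1855 and P21 had 2836 and 2322. Muscle was lower: airway smooth muscle had 521 to 1200 CPM in normal air, myofibroblasts 549 to 730 CPM and vascular smooth muscle 97.7 to 373 CPM. Pericytes were lowest, with 121 and 145 CPM at E18.5, 269 and 201 CPM one day after birth and 44.9 to 72.7 CPM later. Over the 34 combinations of subtype and group with at least 10 cells of a mouse, the order began with adventitial fibroblasts at P21 (3179 CPM), precursors of myofibroblasts and smooth muscle at E18.5 (3057 CPM), early alveolar fibroblasts in hyperoxia (2648 CPM) and alveolar fibroblasts at P21 (2549 CPM). Neighbours among these overlapped between mice.

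Mmp14, the membrane-bound partner of Mmp2, was spread more evenly over the mesenchyme. Its highest mean was 915 CPM in early adventitial fibroblasts of hyperoxic mice (858 and 970), followed by 816 CPM in early airway smooth muscle at P7 (986 and 646), and these overlapped. Adventitial fibroblasts in normal air had 355 to 823 CPM and alveolar fibroblasts 45.3 to 461 CPM. Even the lowest classes held it: pericytes had 120 to 497 CPM and vascular smooth muscle 171 to 468 CPM. No age step of Mmp14 passed the test in any class.

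Mmp3, in contrast, was close to absent up to P7 in normal air and reached its highest levels in adventitial fibroblasts at P21. In adventitial fibroblasts E18.5 had 0 and 0 CPM, P1 had 2.33 and 8.65, P7 had 9.09 and 30.0 and P21 had 1136 and 1528. Alveolar fibroblasts had 0 and 0.0720 CPM at P7 and 92.3 and 547 CPM at P21, and airway smooth muscle had 0 and 0 at P7 and 32.0 and 603 at P21. In both of these the male was well above the female at P21. Adventitial fibroblasts at P21 (mean 1359 CPM) did not overlap the next in order, airway smooth muscle at P21 (341 CPM), which overlapped alveolar fibroblasts at P21 (325 CPM). Pericytes and vascular smooth muscle stayed near 0: at P21 a read of Mmp3 was found in 0 of 70 and 1 of 75 pericytes (with 3 cells as the limit of a count of 0, up to 4.29% with a read for 0 of 70) and in 0 of 33 and 1 of 19 vascular smooth muscle cells.

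Mmp11 was low everywhere and highest in alveolar fibroblasts at P21, at 160 and 156 CPM. Early airway smooth muscle came next, with 137 and 102 CPM at P7. In vascular smooth muscle at P1 the mice differed widely, with 12.7 CPM in the female and 118 CPM in the male.

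**Figure D1:**
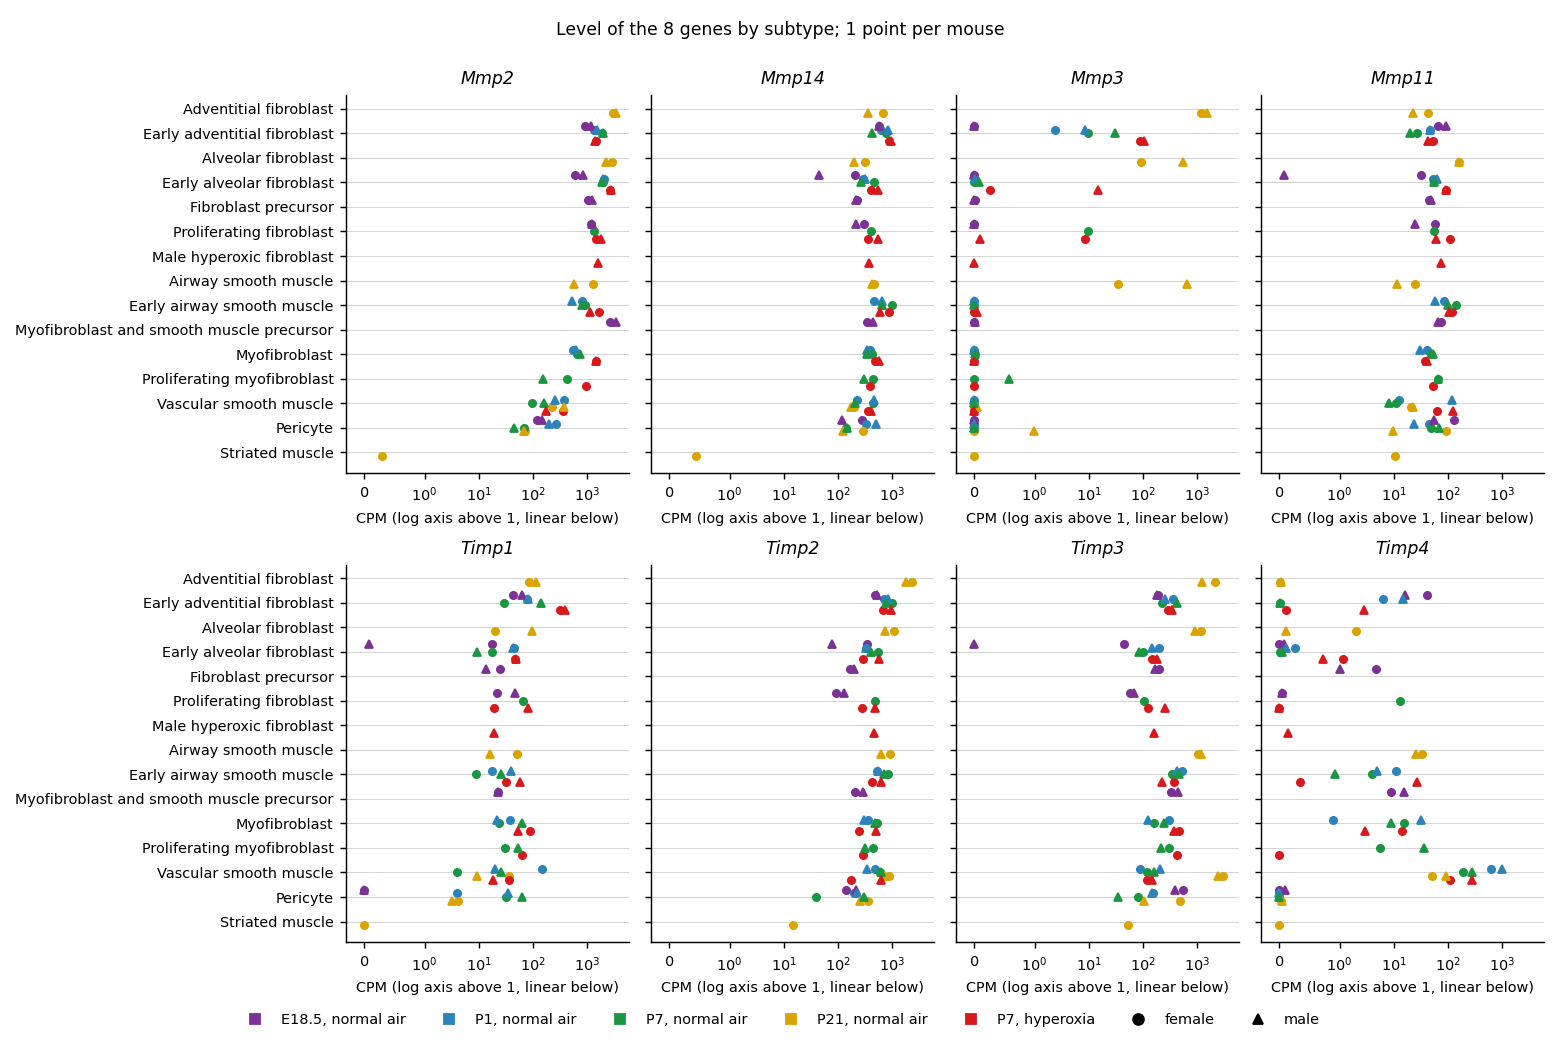
Level of each member (CPM, log scale above 1 and linear below) in 15 subtypes; each point is the summed cells of 1 mouse, with circles for females, triangles for males and colour for the group. Mmp2 is high in fibroblast subtypes, Mmp3 above 1000 CPM in adventitial fibroblasts at P21 alone, and Timp4 highest in vascular smooth muscle.

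Among the inhibitors, Timp2 was highest in fibroblasts and Timp3 in cells of P21. Timp2, which inhibits Mmp2 and is also needed for its activation, went in adventitial fibroblasts through 475 and 517 CPM (E18.5), 720 and 840 (P1) and 1032 and 776 (P7) to 2310 and 1799 CPM (P21). Adventitial fibroblasts at P21 (mean 2065 CPM) did not overlap any other subtype, the next being alveolar fibroblasts at P21 (911 CPM). Vascular smooth muscle had 341 to 864 CPM in normal air, and pericytes 39.0 to 364 CPM.

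Timp3, the matrix-bound inhibitor, was highest in vascular smooth muscle at P21, with 2968 and 2391 CPM. Adventitial fibroblasts at P21 followed with 2069 and 1210 CPM, airway smooth muscle with 1045 and 1154 CPM and alveolar fibroblasts with 1161 and 911 CPM. At P7 in normal air the same 4 classes had 116 and 162, 220 and 425, 347 and 455, and 102 and 83.3 CPM. Pericytes ran otherwise, with 544 and 393 CPM (E18.5), 150 and 148 (P1), 79.7 and 34.3 (P7) and 473 and 103 (P21).

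Timp1, the inhibitor known for its induction in injury and inflammation, was low in normal air. Adventitial fibroblasts had 42.1 and 63.1 CPM (E18.5), 77.9 and 82.3 (P1), 28.4 and 140 (P7) and 83.0 and 114 (P21). Its highest level of all was 316 and 395 CPM in the adventitial class of hyperoxic mice, and early adventitial cells in hyperoxia did not overlap the next in order, adventitial fibroblasts at P21.

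Timp4 was highest in vascular smooth muscle. That class had 620 and 970 CPM (P1), 186 and 283 (P7) and 50.5 and 92.5 (P21) in normal air, and 108 and 276 CPM in hyperoxia. Elsewhere it stayed at or below 40.2 CPM in the other 5 classes. At P1 vascular smooth muscle was 2.37% of the female's cells and 2.81% of the male's, and it held 88.2% and 83.0% of the reads of Timp4 in the mouse. At P21 it held 35.9% and 62.2%.

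Levels of different genes can be compared only per length, as CPM per kilobase of exon. On that scale the leading product of adventitial fibroblasts at P21 was Mmp2 in both mice (884 and 1002), followed by Mmp3 (659 and 850) and Timp2 (599 and 461). Timp3, with the most annotated exon bases of the set, had 264 and 149 there, Timp1, with the fewest, 96.9 and 128 and Mmp14 113 and 59.6. In vascular smooth muscle at P21 Timp3 led (364 and 294), with Timp2 next (222 and 189).

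The sums of the 4 TIMPs and the 4 MMPs per kilobase give the balance of their transcripts, which says nothing of proteins or enzyme activity. In vascular smooth muscle at P21 the TIMP sum exceeded the MMP sum by 2.58 and 1.79 on the log2 scale, and pericytes at P21 had 0.60 and 0.88. In normal air the alveolar, adventitial and proliferating fibroblasts and the precursors lay on the MMP side. So did airway smooth muscle (-0.17 to -0.90) and myofibroblasts (-0.38 to -1.04), and pericytes at P1 (-1.04 and -0.40). The value was -1.94 and -2.28 in early alveolar fibroblasts at P7 and -2.86 and -2.83 in precursors of myofibroblasts and smooth muscle at E18.5, the lowest pair named here. Adventitial fibroblasts at P21 had -0.80 and -1.38, with high sums on both sides.

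**Figure D2:**
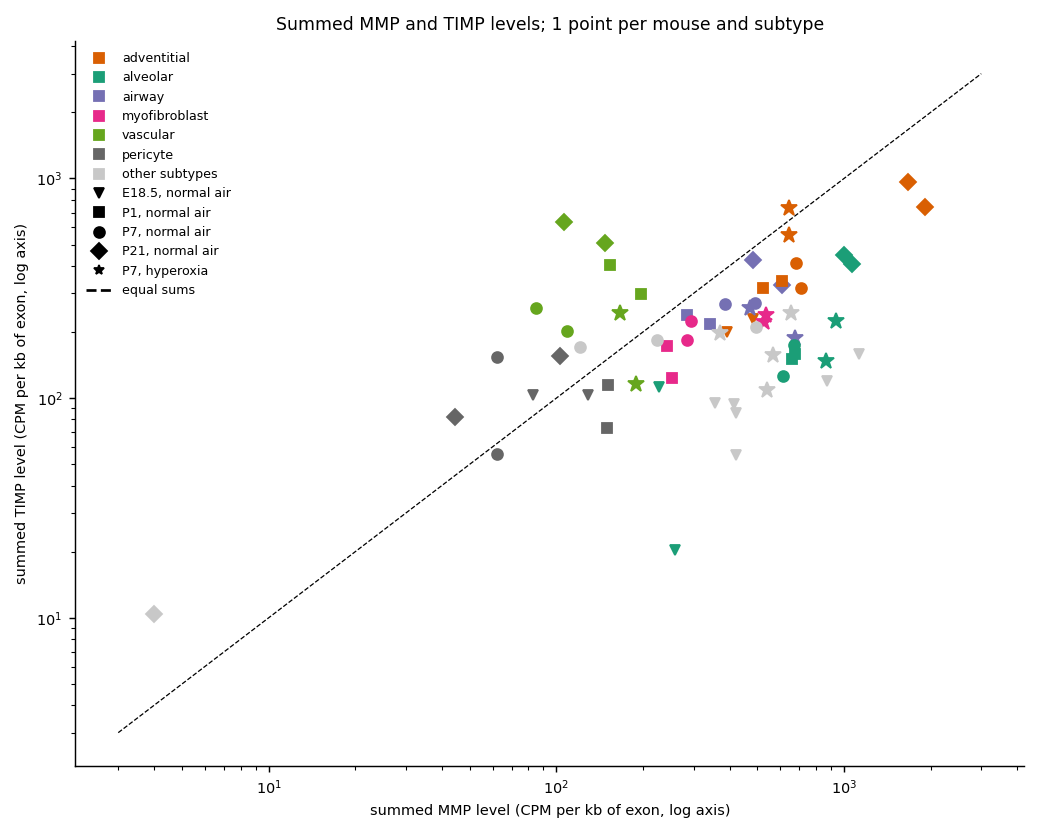
Summed level of the 4 TIMPs against that of the 4 MMPs (CPM per kilobase, log axes) in the 64 sums of a mouse and subtype; the dashed line marks equal sums. Vascular smooth muscle at P21 lies above the line (2.58 and 1.79 on the log2 scale) and early alveolar fibroblasts at P7 below it (-1.94 and -2.28).

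Because pro-Mmp2 activation needs Mmp14 and Timp2 at the same cell surface, the share of single cells with reads of all 3 genes was counted after thinning each cell to 100000 reads. It was 93.4% and 69.0% in adventitial fibroblasts at P21 and 4.00% to 28.6% in pericytes. In normal air at P7 it was 59.0% and 49.3% in early alveolar fibroblasts, 75.5% and 62.3% in early adventitial fibroblasts, 76.0% and 77.8% in early airway smooth muscle and 51.3% and 41.6% in myofibroblasts. In hyperoxia these were 81.8% and 87.6%, 85.8% and 92.2%, 96.5% and 90.5%, and 91.4% and 97.8%, with every hyperoxic mouse above both normal ones. The number of genes found per cell at the same depth was higher in hyperoxia too, with a median of 4456.5 and 5313 in myofibroblasts against 2241 and 2141, and its part in these shares was not tested.

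The age steps asked which members changed within a class from birth to the third week. Mmp3 was called higher in adventitial fibroblasts at P1 than at E18.5, where 1 cell of each mouse held it at P1. From P7 to P21 Mmp3 was called higher in adventitial fibroblasts and airway smooth muscle, and Timp3 in vascular smooth muscle. Mmp2 was called higher in alveolar fibroblasts at P1 than at E18.5. These were 5 of 103 tests of members over 14 comparisons, all of them rises, by edgeR's quasi-likelihood test at an adjusted p under 0.05. The same test called 0.617% of all genes over these comparisons. Of the members' tests, 24 had an unadjusted p under 0.05, as had 7.65% of the tests of all genes, and DESeq2 called 14, against 6.61% of all genes.

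The change of Mmp3 in adventitial fibroblasts from P7 to P21 was 6.48 on the log2 scale (SE 0.56, adjusted p = 0.00429), and 0.124% of all genes were called in that comparison. The females had 9.09 and 1136 CPM and the males 30.0 and 1528 CPM, and in the shared run alone the males had 0.0166 and 1532 CPM. More cells held it: a read was found in 2 of 50 and 2 of 56 cells at P7 and in 66 of 161 (41.0%, 95% Wilson interval 33.7 to 48.7%) and 34 of 86 (39.5%, 29.9 to 50.1%) at P21. At 100000 reads per cell the shares at P21 were 40.3% and 37.6%. Among the subtype's cells with a read at P21 the median was 1000.1 CPM in the female and 1439 CPM in the male, and the 5 highest cells held 45.4% and 67.5% of the reads, so the gene was unevenly spread within the subtype. Each plate showed it, with 691 and 1593 CPM on those of the female and 1088 and 1969 CPM on those of the male. Adventitial fibroblasts, 29.2% and 27.3% of the cells at P21, held 92.0% and 71.7% of a mouse's Mmp3 reads.

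That call of Mmp3 was lost without the female at P7 (adjusted p = 0.0661), without the male at P7 (0.106), and with cells of the main run alone (0.178), where the level of the male at P7 was 0.0166 CPM because its reads came from 1 of 2 early adventitial cells of the small run. Removing cells with a read of a mesothelial gene (Msln, Upk3b, Wt1 or Lrrn4) left it at 6.37 (SE 0.52, adjusted p = 0.0037).

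The earlier call of Mmp3, from 0 reads in both mice at E18.5, had an adjusted p of 0.0154, with 0.17% of all genes called. It was lost with main-run cells alone (adjusted p = 0.374) and with the 4 mice of the contrast alone (0.640). The level at P1 was 94.9-fold a floor of 3 reads over the E18.5 group, and 40.3-fold from the female alone. It rested on 1 of 138 and 1 of 67 cells (0.725% and 1.49%), so these folds are no lower bounds. At E18.5 0 of 26 and 0 of 29 cells held a read, where 3 cells as the limit would be 11.5% and 10.3%. These cells therefore cannot tell a rise from an unchanged share of cells.

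In airway smooth muscle 0 of 75 and 0 of 64 cells held a read of Mmp3 at P7, where 3 cells as the limit would be 4.00% and 4.69%, against 8 of 62 and 14 of 57 at P21. The rise was at least 1.75e+04-fold over a floor of 3 reads at P7 (adjusted p = 0.00261, with 1.13% of all genes called) and was lost without the male at P21 (adjusted p = 0.240), where the female alone gives at least 1763-fold. The 5 highest cells held 94.2% and 90.1% of these reads.

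In alveolar fibroblasts Mmp3 did not pass the test from P7 to P21 (adjusted p = 0.106), with reads in 22 of 182 and 10 of 74 cells at P21. Its positive cells there had alveolar markers summing to 19662 CPM in the female and 17895 CPM in the male, against 21264 and 26086 CPM in cells without a read.

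**Figure D3:**
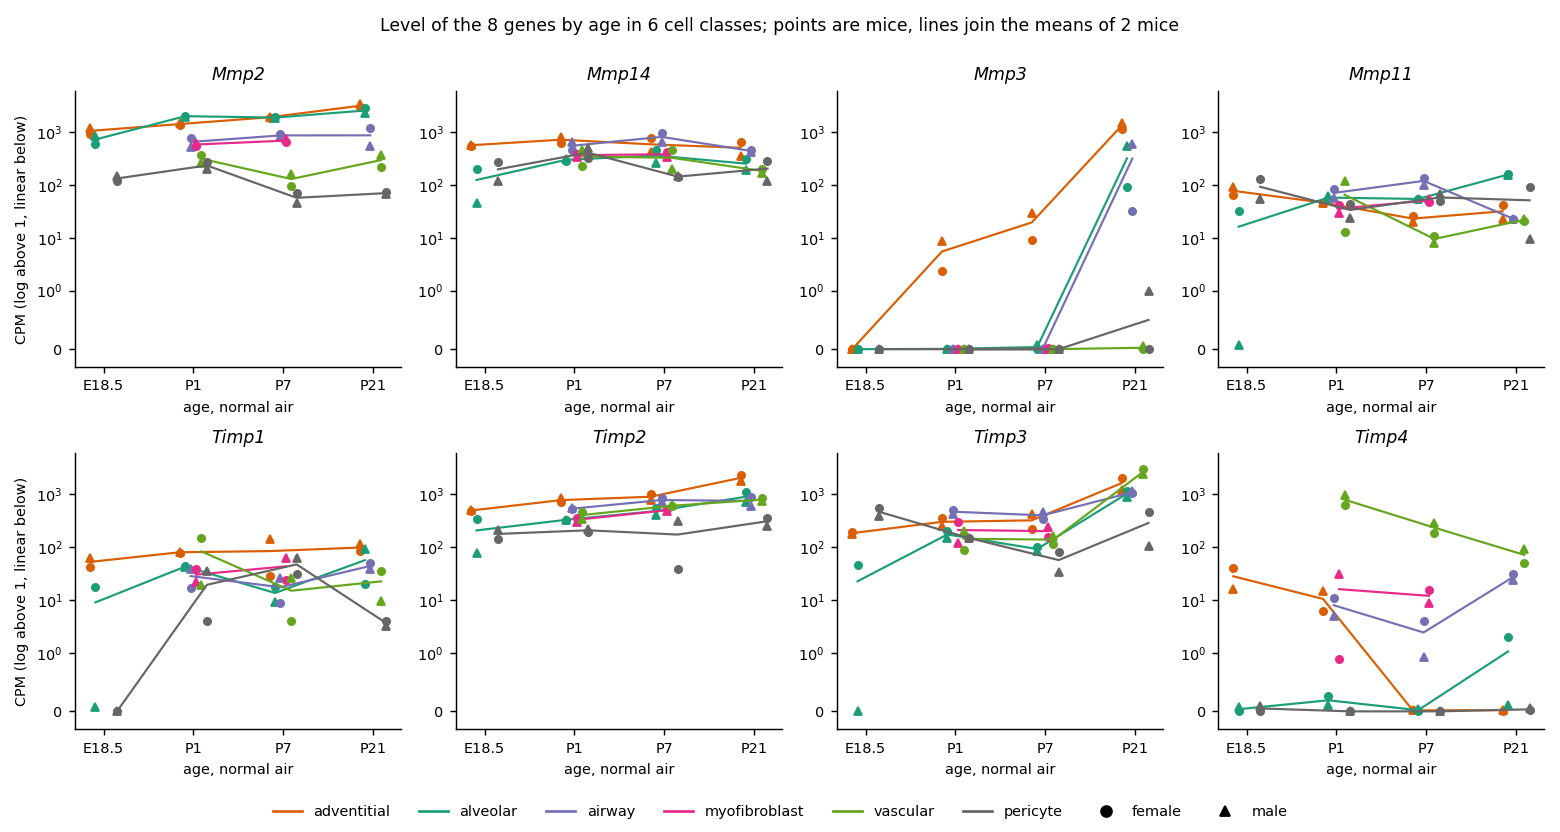
Level of each member (CPM) by age in normal air in 6 classes; points are mice and lines join the means of the female and the male. Mmp3 in adventitial fibroblasts goes from 9.09 and 30.0 CPM at P7 to 1136 and 1528 CPM at P21, and Timp3 in vascular smooth muscle from 116 and 162 to 2968 and 2391 CPM.

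Timp3 in vascular smooth muscle changed by 4.47 on the log2 scale from P7 to P21 (SE 0.53, adjusted p = 0.0141, with 0.0886% of all genes called). A read was found in 9 of 27 and 5 of 31 cells at P7 and in 30 of 33 and 17 of 19 at P21. In cells of their shared run alone the males had 163 CPM at P7 and 2391 CPM at P21. The call was lost without the female at P7 (adjusted p = 0.0965) and without the male at P7 (0.0739). The other classes had positive values that missed the threshold: 2.50 in adventitial fibroblasts (SE 0.41, adjusted p = 0.0611), 1.81 in airway smooth muscle (SE 0.35, 0.0515), 3.80 in alveolar fibroblasts (SE 1.72, 0.709) and 2.22 in pericytes (SE 0.69, 0.879). In each of the 5 classes both mice at P21 lay above both at P7.

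The rise of Mmp2 in alveolar fibroblasts from E18.5 to P1 was 1.40 on the log2 scale (SE 0.31, adjusted p = 0.0412), where 6.16% of all genes were called and the median of all genes was 1.35. It is therefore close to the shift of the whole class. The E18.5 libraries of that class held 14 and 24 cells, with 1047.5 and 918 genes per cell at 100000 reads against 2491.5 and 2435 at P1, and in the female epithelial markers summed to 1082 CPM. The part of these in the result was not tested. The call held in 4 of 16 alternatives, over which the adjusted p ran from 0.0255 to 0.572.

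The alveolar fit was repeated without both E18.5 libraries, an alternative chosen after the data were seen. From P7 to P21 Timp3 then rose by 3.79 on the log2 scale (SE 0.35, adjusted p = 0.0033), Mmp11 by 1.85 (SE 0.33, 0.0479), and Mmp3 passed as well (0.0031), where 1.1% of all genes were called. Mmp11 had gone from 54.6 and 54.3 CPM to 160 and 156 CPM in those cells. In airway smooth muscle Mmp11 moved the other way without passing, from 137 and 102 CPM to 22.9 and 22.8 (log2 -2.01, SE 0.49, adjusted p = 0.116, DESeq2 0.00108).

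The members with both mice at P21 above both at P7 were: 7 of 8 in alveolar fibroblasts (all but Mmp14), 4 in adventitial fibroblasts (Mmp2, Mmp3, Timp2, Timp3), 4 in airway smooth muscle (Mmp3, Timp1, Timp3, Timp4), 4 in vascular smooth muscle (Mmp2, Mmp11, Timp2, Timp3) and 1 in pericytes (Timp3). Among all genes such a separation upward was seen for 15.8%, 20.0%, 13.9%, 14.9% and 23.7%. The members with both mice below were Mmp11 and Mmp14 in airway smooth muscle, Mmp14 and Timp4 in vascular smooth muscle and Timp1 in pericytes, and 0 in either fibroblast class, where all genes separated downward in 32.2%, 22.3%, 17.1%, 29% (alveolar) and 20.4% (adventitial). EdgeR called 0.0702% of all genes in alveolar fibroblasts and 0.0504% in pericytes over this step. The median change of the members was 2.28 in alveolar fibroblasts against -0.04 over all genes, 0.75 against 0.10 in adventitial fibroblasts and 1.05 against -0.09 in airway smooth muscle.

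From E18.5 to P1, 7 of 8 members were above in alveolar fibroblasts (all but Timp2) and 0 below, where 48.5% of all genes separated upward and 8.85% downward. Of the 7, Mmp3 (3 reads over 755 cells at P1) lay below the level of 3 reads in the E18.5 libraries (0.960 and 0.221 CPM) and could not have been seen there. Timp4 at P1 (0.264 and 0.113 CPM) lay below that level of the female and around that of the male. At E18.5 a read of Timp4 was found in 0 of 14 and 1 of 24 cells. In adventitial fibroblasts 6 were above (23.9% of all genes) and Mmp11 and Timp4 below (15.3%), and in pericytes Mmp2, Mmp14 and Timp1 were above (18.4%) and Mmp11 and Timp3 below (15%). EdgeR called no member in pericytes and 0.042% of all genes.

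From P1 to P7 edgeR called no member in any of 6 classes, where it called 0% of all genes. Of the members' tests 6 had an unadjusted p under 0.05, as had 2.36% to 8.01% of the tests of all genes by class. DESeq2 called 3, against 1.37% to 5.33% of all genes by class. Timp4 was lower at P7 in 4 classes. In vascular smooth muscle, where it is abundant, the change was -1.72 on the log2 scale (SE 0.53, adjusted p = 0.991, DESeq2 0.0426). Elsewhere few cells held a read. In airway smooth muscle these were 1 of 38 and 1 of 23 at P1 and 3 of 75 and 4 of 64 at P7. In adventitial fibroblasts they were 3 of 138 and 2 of 67 against 1 of 50 and 1 of 56. In alveolar fibroblasts they were 3 of 362 and 6 of 393 against 1 of 218 and 3 of 147. Both mice at P7 lay above both at P1 for Timp2 in alveolar fibroblasts (19.6% of all genes), Mmp2 and Mmp3 in adventitial fibroblasts (12.4%, for Mmp3 lost in main-run cells, where the male had 0.0166 CPM at P7 and 8.65 CPM at P1), Mmp2, Mmp11 and Timp2 in airway smooth muscle (22.9%) and in myofibroblasts (27.2%), Timp2 in vascular smooth muscle (18.3%) and Mmp11 in pericytes (16.8%). They lay below for 4 members in alveolar fibroblasts (21.2%), 2 in adventitial fibroblasts (22.9%), 1 in airway smooth muscle (14.8%), 0 in myofibroblasts (14.3%), 3 in vascular smooth muscle (15.6%) and 3 in pericytes (16%).

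The hyperoxia comparison asked how P7 mice in oxygen-enriched air differed from P7 mice in normal air. Timp1 and Mmp3 were higher in both hyperoxic mice in adventitial fibroblasts, as was Mmp2 in myofibroblasts. None passed edgeR's test: it called 0 of 38 member tests and 0% of all genes in each of the 5 classes, while 6 had an unadjusted p under 0.05, as had 4.59% of the tests of all genes. DESeq2 called 5, against 1.99% of all genes.

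Timp1 in the adventitial class was 28.4 and 140 CPM in normal air and 316 and 395 CPM in hyperoxia, with no overlap between mice. By plate the females had 31.0 and 25.9 CPM in normal air and 396 and 192 CPM in hyperoxia, while the plates of the males overlapped, with 192 and 85.9 CPM in normal air and 577 and 109 CPM in hyperoxia. The difference of Timp1 was 2.12 on the log2 scale (SE 0.52, adjusted p = 0.519, DESeq2 0.00709). A read was found in 11 of 50 and 17 of 56 cells in normal air (22.0% and 30.4%) and in 79 of 110 (71.8%, 95% Wilson interval 62.8 to 79.4%) and 96 of 116 (82.8%, 74.9 to 88.6%) in hyperoxia. At 100000 reads per cell the shares were 22.0% and 29.6% against 70.1% and 78.4%. Shares were higher in hyperoxia also in alveolar fibroblasts (10.1% and 5.44% against 26.9% and 32.6%) and airway smooth muscle (14.7% and 7.81% against 37.9% and 45.5%). In myofibroblasts the share was 16.1% and 15.2% against 69.0% and 73.3%, but the level overlapped (23.7 and 63.1 against 88.5 and 53.8 CPM) and was lower in the hyperoxic male than in the normal one. More genes were found per cell at equal depth in hyperoxia in these classes, with a median of 4018 and 4817 in adventitial fibroblasts against 2483.5 and 2537, and its part in the shares was not tested. Early adventitial cells held 61.9% and 70.7% of a hyperoxic mouse's Timp1 reads, against 12.4% and 25.9% in normal air, but were also 21.4% and 21.1% of its cells against 8.09% and 9.65%.

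**Figure D4:**
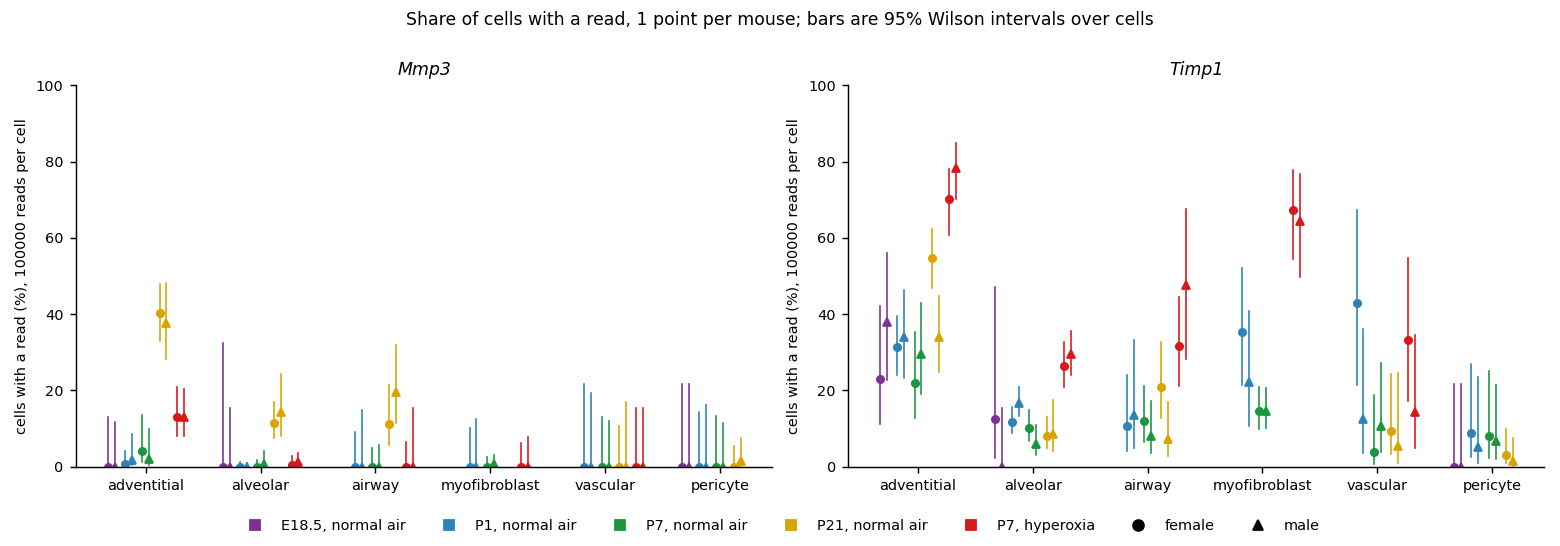
Share of cells with a read of Mmp3 or Timp1 (percent, each cell thinned to 100000 reads) by class and mouse, with bars for the 95% Wilson interval, which covers counting error only. Timp1 is found in 70.1% and 78.4% of adventitial cells in hyperoxia against 22.0% and 29.6% in normal air at P7.

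Mmp3 in the adventitial class was 9.09 and 30.0 CPM in normal air and 86.7 and 102 CPM in hyperoxia, again with no overlap and far below the level at P21 (log2 2.36, SE 0.47, adjusted p = 0.347, DESeq2 0.000423). In main-run cells it was 9.09 and 0.0166 against 88.9 and 107 CPM (log2 4.32, adjusted p = 0.640). In alveolar fibroblasts it was 0 and 0.0720 CPM against 0.259 and 14.6 CPM (adjusted p = 1, DESeq2 0.00515). Few cells decide these levels: a read was found in 0 of 218 and 2 of 147 in normal air and in 1 of 212 and 3 of 242 in hyperoxia. Mmp2 in the adventitial class was lower in hyperoxia, at 1451 and 1379 CPM against 1885 and 1963 (log2 -0.62, SE 0.27, adjusted p = 0.621).

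The summed level of mesothelial markers was also higher in the adventitial class in hyperoxia, at 575 and 654 CPM against 208 and 0.0648 CPM in normal air. All 4 were present in both hyperoxic mice and in the female in normal air, while Msln had no read in the male in normal air. Endothelial markers summed to 37.6 and 110 against 2.69 and 5.67 CPM. Cells with a mesothelial read were 6.36% and 24.1% of the class in hyperoxia, against 6.00% and 7.14% in normal air, so their share differed in the male only. Without them Timp1 was 324 and 489 CPM against 29.6 and 158 (log2 2.14, adjusted p = 0.566), and Mmp3 was 92.0 and 137 against 10.0 and 33.9 (2.43, 0.315).

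In myofibroblasts Mmp2 was 659 and 730 CPM in normal air and 1458 and 1430 CPM in hyperoxia (log2 1.02, SE 0.30, adjusted p = 0.636, DESeq2 0.0308). Mmp14 was 426 and 340 CPM against 481 and 566, and Timp3 159 and 244 against 464 and 375, each without overlap. The transcript balance of these cells was -0.64 and -0.38 in normal air and -1.24 and -1.17 in hyperoxia, toward the MMPs. In early adventitial fibroblasts it went the other way, from -1.16 and -0.73 to -0.21 and 0.19, with a TIMP sum of 316 and 410 CPM per kilobase in normal air and 554 and 735 in hyperoxia beside MMP sums of 708 and 679 and of 643 and 644.

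**Figure D5:**
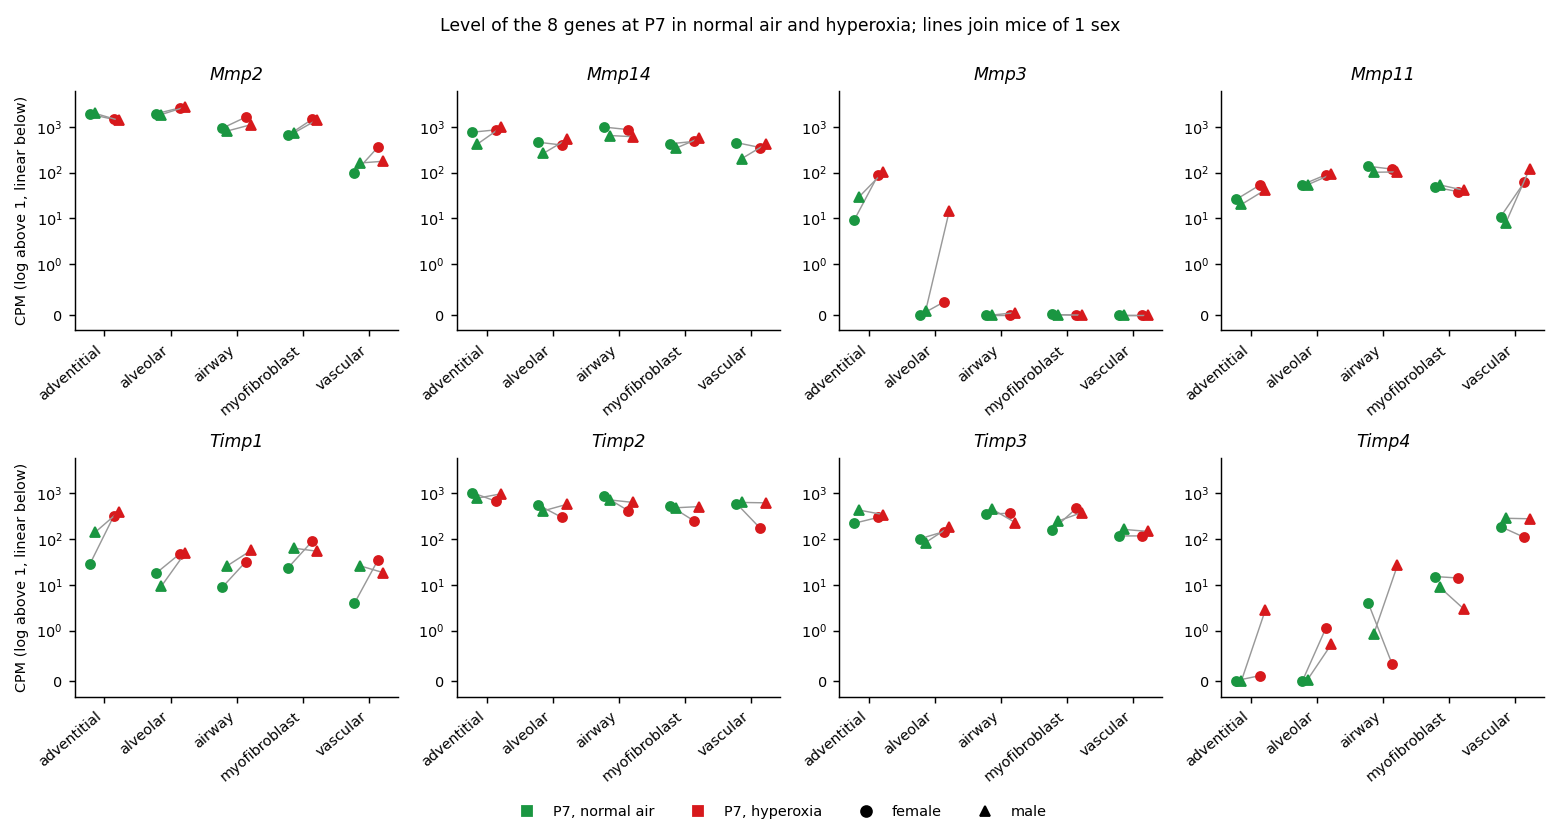
Level of each member (CPM) in 5 classes at P7 in normal air (green) and hyperoxia (red); lines join the mice of 1 sex. Timp1 in the adventitial class lies at 28.4 and 140 CPM in normal air and at 316 and 395 CPM in hyperoxia, a difference that edgeR did not call.

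By class, the members above in both hyperoxic mice were 6 in alveolar fibroblasts (all but Mmp14 and Timp2), 5 in adventitial fibroblasts (Mmp3, Mmp11, Mmp14, Timp1, Timp4), 2 in airway smooth muscle (Mmp2, Timp1), 3 in myofibroblasts (Mmp2, Mmp14, Timp3) and 2 in vascular smooth muscle (Mmp2, Mmp11). All genes separated upward in 27.2%, 31.3%, 17.2%, 24.1% and 22.8% of cases. In alveolar fibroblasts Mmp3 and Timp4 rested on few cells. A read of Timp4 was found there in 4 of 212 and 8 of 242 cells in hyperoxia, against 1 of 218 and 3 of 147. The members below in both were Mmp2 in adventitial fibroblasts (14.1% of all genes), Timp2 in airway smooth muscle (19%) and Mmp11 in myofibroblasts (22.6%), with 0 in alveolar fibroblasts (16.2%) and in vascular smooth muscle (13.3%). Timp4 in the adventitial class, which DESeq2 called (0.0221), was at 0.114 and 2.78 CPM in hyperoxia and at 0.0165 and 0.0162 CPM in normal air, levels of few reads. A subtype found in the hyperoxic male alone, labelled male hyperoxic fibroblast (55 cells), had 1601 CPM of Mmp2, 454 of Timp2, 160 of Timp3, 18.8 of Timp1 and 0 of Mmp3.

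Whether the hyperoxia effect differed between classes was tested against the effect in alveolar fibroblasts. EdgeR called 0 of 32 member tests, where it called 0.0828% of all genes (0.0375% in adventitial fibroblasts, 0.025% in airway smooth muscle, 0.0125% in myofibroblasts and 0.256% in vascular smooth muscle), with 6 at an unadjusted p under 0.05 beside 5.34% of the tests of all genes. DESeq2 called 2, against 2.45% of all genes. Both were in vascular smooth muscle: Mmp11, at 10.9 and 8.12 CPM in normal air and 62.3 and 122 CPM in hyperoxia, differed by 2.51 from the alveolar effect (SE 0.54, adjusted p = 0.102, DESeq2 0.000165), and Timp4, which stayed at or below 1.99 CPM in alveolar fibroblasts, by -6.50 (0.417, DESeq2 0.0219). The gap of Timp1 in adventitial fibroblasts was thus not shown to differ from that in alveolar fibroblasts, where it was 17.8 and 9.28 CPM against 47.5 and 49.6 CPM.

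Other genes of the system were taken from lists chosen for the pathway. Of 19 other MMPs 14 were in the table, edgeR called 0 of their 106 age tests, 39 hyperoxia tests and 40 difference tests (8, 4 and 5 with an unadjusted p under 0.05), and DESeq2 called 9, 2 and 4. Over all genes edgeR called 0.617%, 0% and 0.0828% in the same comparisons. Of the tests of all genes 7.65%, 4.59% and 5.34% had an unadjusted p under 0.05, and DESeq2 called 6.61%, 1.99% and 2.45%. Most were near 0. The 6 with a class mean over 10 CPM were Mmp23, highest in adventitial fibroblasts in hyperoxia (491 to 526 CPM), Mmp16 there too (42.2 to 49.5), Mmp27 in adventitial fibroblasts at P21 (15.8 to 16.2), Mmp15 in vascular smooth muscle at P7 (9.44 and 42.4), Mmp17 in pericytes at P7 (2.86 and 91.6) and Mmp19 in alveolar fibroblasts at E18.5 (0 and 199). The last 3 rested largely on 1 mouse.

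A list of 22 regulators held genes tied to the system, not all of which act on MMPs directly. Of their 284 age tests 4 passed, against 0.617% of all genes (49 with an unadjusted p under 0.05 against 7.65%, 28 by DESeq2 against 6.61%). Thbs1, a matricellular thrombospondin, rose in airway smooth muscle from 1636 and 1314 CPM at P7 to 5138 and 4225 CPM at P21 (log2 2.02, SE 0.32, adjusted p = 0.0194). In adventitial fibroblasts Thbs2, which binds Mmp2 for its clearance, fell from 757 and 743 to 172 and 66.0 CPM (-2.62, SE 0.38, 0.0462), and Serpine2, an inhibitor of serine proteases, fell from 547 and 499 to 121 and 111 CPM (-2.00, SE 0.30, 0.0469). Pcsk5, a proprotein convertase related to furin, rose in alveolar fibroblasts from 0 reads at E18.5 to 36.2 and 30.6 CPM at P1 (0.0284), in the comparison where 6.16% of all genes were called and the median of all genes was 1.35. In hyperoxia 0 of 102 tests passed, against 0% of all genes (13 with an unadjusted p under 0.05 against 4.59%, 6 by DESeq2 against 1.99%). Of 88 difference tests 1 passed, against 0.0828% of all genes (16 with an unadjusted p under 0.05 against 5.34%, 6 by DESeq2 against 2.45%). That 1 was Serpine2, on which the effect was 1.61 higher in adventitial than in alveolar fibroblasts (SE 0.21, adjusted p = 0.0140). Serpine2 had 547 and 499 CPM in normal air and 1676 and 1206 in hyperoxia in the former, and 3618 and 4687 against 4386 and 3151 in the latter. Reck, a membrane-anchored MMP inhibitor, had its highest mean in pericytes at P21 (283 and 710 CPM).

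Over the 64 sums of a mouse and subtype, which share mice and libraries, the genes most like each member were found by Pearson correlation of log2(CPM + 1) among 10860 genes, as a description. Mmp3 was most like the complement gene C3 (0.88), Tnfsf13b (0.81) and Serpina3n (0.80). Mmp14 was most like Fkbp10, Bgn and Pofut2 (0.88 each), of which Fkbp10 encodes a collagen chaperone and Bgn the proteoglycan biglycan. For Mmp2 they were Gas7 (0.83), Dap (0.82) and the collagen gene Col6a3 (0.80), and for Timp2 Aebp1 (0.77), Sec24d (0.76) and Col3a1 (0.76). Timp3 had Sntb2 (0.77), Errfi1 (0.70) and Slc38a10 (0.70), Timp4 Olfml2a (0.78), Pawr (0.71) and Grp (0.71), Timp1 Islr (0.72), Kdelr3 (0.71) and Palm (0.68), and Mmp11 Lrrc41 (0.70), Sox4 (0.68) and Anapc2 (0.65). Between members the highest value was that of Mmp14 and Timp2 (0.69), then Mmp2 and Mmp14 (0.67), and the lowest that of Mmp3 and Timp4 (-0.16).

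Some members overlap other genes in the annotation (GENCODE M21), and the sources used here do not state whether counting used strand. Timp1, Timp3 and Timp4 lie inside Syn1, Syn3 and Syn2 on the opposite strand, and those genes reached at most 7.63, 18.1 and 65.0 CPM. Mmp11 overlaps Chchd10 (34.0 CPM at most) and Timp2 overlaps Cep295nl (34.4 CPM at most). The levels of Timp4 outside vascular smooth muscle, at most 40.2 CPM, lie below the highest level of Syn2.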

How the data were processed

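The deposited values were whole-number read counts per gene and cell, made by the authors with STAR 2.5.2b and HTSeq 0.10, per the submitters' processing notes, which name GRCh38, a human build, for these mouse data. Gene positions of the count table were therefore not used. No molecular identifiers are named, so reads copied from 1 molecule count separately, and intervals and floors cover counting error only. Subtypes are the authors'. No doublet caller was run.

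Counts were summed per mouse and class or subtype with at least 10 cells. CPM are reads per 1000000 reads of all genes in the sum. Sums per class were tested with edgeR 4.0.16 (TMM, filterByExpr, two-sided quasi-likelihood test, terms for sex and group) in R 4.3.3, with Benjamini-Hochberg adjustment over all genes of a comparison and a threshold of 0.05. SE is the log2 change divided by the square root of F. The difference between classes was tested in 1 fit with the mouse as a block. DESeq2 1.42.0 was an alternative. Nothing states that mice of a sex pair across groups. With the term for sex, p-values by class measure the spread between these mice beyond a common difference of females and males. The main runs of females and males differed, so that difference cannot be told apart from run. Shares of cells were also counted after thinning to 100000 reads, which left out 168 cells. Exon lengths came from GENCODE M21, as the bases covered by any annotated exon of a gene. They can exceed the length of the transcripts present, so levels per kilobase depend on the annotation. All members are named, list genes where they passed. Members and lists were chosen with earlier results of these data known. The scripts were tested on simulated data, where few of the changed genes were recovered. No changed gene was recovered in any alveolar comparison, in most pericyte comparisons or in vascular smooth muscle under hyperoxia. A gene not called there may therefore still have changed. False calls occurred in several classes and were most frequent in airway smooth muscle.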

Additional observations from a re-analysis of the deposited data

Results flagged for a closer look

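Several members changed in opposite directions in different classes over the same age step, with both mice of the later age above both of the earlier one in 1 class and below in another. These differences between classes were not tested. From E18.5 to P1, Mmp11 was higher in alveolar fibroblasts (mean 57.7 against 16.2 CPM) and lower in pericytes (33.7 against 92.6 CPM), and Timp3 likewise was higher in alveolar fibroblasts (174 against 22.6 CPM) and lower in pericytes (149 against 469 CPM). The E18.5 alveolar libraries in these comparisons held 14 and 24 cells.

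From P7 to P21, Mmp11 was higher in alveolar fibroblasts (158 against 54.4 CPM) and in vascular smooth muscle (21.9 against 9.50 CPM) and lower in airway smooth muscle (22.9 against 120 CPM). Timp1 was higher in airway smooth muscle (44.1 against 17.4 CPM) and alveolar fibroblasts (56.7 against 13.6 CPM) and lower in pericytes (3.62 against 47.1 CPM). The alveolar difference of Timp1 came from the male (93.5 against 9.28 CPM), the female having 19.9 against 17.8 CPM. The pericyte difference of Timp1 rested on few cells, with a read in 2 of 26 and 2 of 31 at P7 and in 3 of 70 and 1 of 75 at P21. Timp4 was higher in airway smooth muscle (27.4 against 2.42 CPM) and lower in vascular smooth muscle (71.5 against 234 CPM). The airway difference of Timp4 also rested on few cells, with a read in 3 of 75 and 4 of 64 at P7 and in 7 of 62 and 4 of 57 at P21.

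In 3 cases the female and the male went opposite ways, which with 1 mouse of each sex per group was not tested. Values are differences of log2(CPM + 1). Timp1 in vascular smooth muscle from P7 to P21 had 2.89 in females and -1.38 in males. Its reads lay in 1 of 27 and 4 of 31 cells at P7 and in 3 of 33 and 1 of 19 at P21. Timp4 in airway smooth muscle had -1.88 in the females and 3.84 in the males for hyperoxia against normal air at P7. Its reads lay in 3 of 75 and 4 of 64 cells in normal air and in 1 of 58 and 2 of 22 in hyperoxia. Timp4 in myofibroblasts from P1 to P7 had 3.09 in females and -1.71 in males. There 2 of 39 and 1 of 32 cells held a read at P1, and 6 of 155 and 10 of 184 at P7. Few cells thus decide these values.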

How the results depend on the processing

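The count of member tests called for age was 5. It was 14 with DESeq2 (4 of the 5 among them), 9 with each cell thinned to 100000 reads (4 of the 5, the fifth, Mmp2 in alveolar fibroblasts, having too few cells to be run), 8 with the alveolar class fitted without both E18.5 libraries (chosen after the data were seen, with the comparison to E18.5 kept from the full fit) and 2 to 12 when each mouse was left out in turn. It was 12 without the female and 9 without the male at E18.5, 2 without either mouse at P7 and 3 without the male at P21. With RLE scaling it was 5 (4 of the 5), without a filter on low counts 7 (all 5), with main-run cells of the mesenchymal sort 4 (3 of the 5), with the 4 mice of a contrast alone 5 (3 of the 5), with at least 20 cells 5 of 75 tests (3 of the 5, as Mmp2 in alveolar fibroblasts and Timp3 in vascular smooth muscle could not be run) and with adventitial cells without a mesothelial read (chosen after the data were seen) 5 (all 5). Without the term for sex, which stands in for the replicate block because each group has 1 mouse of each sex, it was 7. Calls over all genes moved too: DESeq2 called 6.61% of them, against 0.617% in the main fit. In alveolar fibroblasts from P7 to P21 edgeR called 1.1% without both E18.5 libraries, against 0.0702%. For the other alternatives the share over all genes is not given here, so their counts do not show a change particular to the members.

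For hyperoxia the count was 0 and with DESeq2 5, and for the difference between classes 0 and with DESeq2 2. Every other alternative that could be fitted gave 0 in both, the fit without a replicate block and each mouse left out included. No change of a member that had been called reversed its direction. Scaling moved the median of all genes by over 0.1 on the log2 scale in 2 comparisons, alveolar fibroblasts from E18.5 to P1 (0.217) and from P7 to P21 (-0.103).

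A level was counted as moved if it changed by more than the spread between the mice. In a group with 1 mouse, which has no spread, any change was counted. Of 272 levels, 68 were counted as moved when cells were thinned, 70 as a mean over cells and 11 in main-run cells. Of 40 adventitial levels, 5 moved without cells holding a mesothelial read. In the shallow E18.5 libraries of alveolar fibroblasts, levels under 0.960 CPM (female) or 0.221 CPM (male) amount to fewer than 3 reads.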
